A study of Mus musculus with 4 samples.

Results

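The enzymes of heme synthesis were followed in RNA of hematopoietic stem cells that had been sorted from mouse bone marrow, from floxed Ddx21 mice with and without a Cre transgene. Ddx21 encodes a nucleolar RNA helicase. The set holds 8 genes, Alas1, Alas2, Alad, Uros, Urod, Cpox, Ppox and Fech, chosen by their known role among the 12390 genes of the table. All 8 were among the 11742 genes tested.

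The 2 control libraries came from mice with floxed Ddx21 alleles and no Cre (genotype labelled WT, alleles spelled Ddx211fl/fl in the series text). The 2 knockout libraries came from mice with the same alleles and CAG-CreERT2 (labelled KO), a tamoxifen-dependent Cre whose promoter is active in most cell types, so recombination need not be limited to blood cells. About 5000 cells per library were sorted by a gate that keeps cells with c-Kit, CD150 and Sca-1 on the surface and removes those with CD48 or lineage antigens. The sources used here do not give age, sex, tamoxifen dosing or the number of animals behind a library. The limma p-values on deposited values set each difference against a spread between libraries taken from genes of like level. That spread may be technical.

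Heme is made from glycine and succinyl-CoA in a chain of enzymes that starts in the mitochondrion, runs through the cytosol and ends in the mitochondrion, where iron is inserted. Its rate is set mainly at the opening step, 5-aminolevulinate synthase, which is encoded by the widely expressed Alas1, repressed by heme, and by Alas2 on the X chromosome, the form of developing red cells. In bone marrow most heme goes into hemoglobin, and other cells need it for cytochromes, catalase and, in granulocyte precursors, myeloperoxidase.

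Promoter sequence is shown for Alas2, Urod and Cpox, as the erythroid synthase, an abundant enzyme without a GATA word and a scarce enzyme with a pair of them, all with windows clear of annotated exons once trimmed. Sequences are from RefSeq on GRCm38.p6, the build also called mm10, 5′ to 3′ on the gene's strand, and the windows end at the base before the RefSeq start. They lie at chrX:150547167-150547374 on the plus strand for Alas2, where the last 42 bases of the window are left out because GENCODE places them in an exon, at chr4:116994414-116994663 on the minus strand for Urod, and at chr16:58669958-58670207 on the plus strand for Cpox. Capitals mark matches on either strand to AGATA or TGATA followed by A or G (the GATA words, the sites of Gata1 and its relatives), to CCACCC (the CACCC word), GGGCGG (the GC box) and TGAGTCA (the core word of AP-1 and Bach1).
Alas2: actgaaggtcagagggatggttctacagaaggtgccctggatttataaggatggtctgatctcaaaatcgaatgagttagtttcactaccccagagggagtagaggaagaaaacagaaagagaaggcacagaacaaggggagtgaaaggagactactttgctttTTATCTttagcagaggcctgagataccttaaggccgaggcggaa
Urod: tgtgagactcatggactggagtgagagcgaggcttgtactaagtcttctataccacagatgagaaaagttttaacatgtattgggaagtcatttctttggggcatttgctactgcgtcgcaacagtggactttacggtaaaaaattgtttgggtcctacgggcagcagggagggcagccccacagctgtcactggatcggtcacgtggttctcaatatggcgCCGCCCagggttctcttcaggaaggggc
Cpox: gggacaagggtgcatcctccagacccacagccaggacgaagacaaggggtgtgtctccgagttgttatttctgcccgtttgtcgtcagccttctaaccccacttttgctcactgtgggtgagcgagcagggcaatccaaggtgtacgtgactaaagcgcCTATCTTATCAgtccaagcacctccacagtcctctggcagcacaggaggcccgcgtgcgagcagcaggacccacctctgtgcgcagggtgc

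The capitals in Alas2 are 1 GATA word on the minus strand, 86 to 81 bases before the start. The capitals in Cpox are 2 GATA words that overlap by their shared base 86 before the start, and those in Urod are 1 GC box 28 to 23 bases before it. Alas2 also held 3 overlapping CACCC words and a GC box in the stretch left out. GATA words stood in 26.5% of 32851 RefSeq windows of 250 bases, CACCC words in 28.1%, GC boxes in 32.7% and the AP-1 and Bach1 core in 4.46%. A RefSeq window was found for 7 of the 8 enzymes. Among those not printed, 1 of the Alas1 windows held a CACCC word and a GC box, and the windows of Alad held GC boxes. Of the Uros windows, 1 held 2 GATA words and the other a GC box. The Ppox window held none of the words, and no enzyme held the AP-1 and Bach1 core. These matches describe letters only.

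Values below are RPKM, read counts scaled to transcript length and library depth, as deposited. Listed reads per library numbered 43218009 to 62871440. Fold changes are log2, knockout minus control, on log2(RPKM + 1), with the SE and the Benjamini-Hochberg adjusted p of limma over all tested genes, called when under 0.05. Over all tested genes the median was 0.31, and 0.02 after TMM rescaling, a trimmed-mean correction of library scale with factors from 0.869 to 1.31, the highest in knockout replicate 2. Of all tested genes 3.33% were called higher and 0.86% lower. Ddx21 stood at 10.95 and 12.1 RPKM in the controls and at 6.20 and 6.60 RPKM in the knockouts. Its log2 fold change was -0.76 (SE 0.30) and was not called (adjusted p = 0.158 by limma), although the groups did not overlap. It was called with voom (adjusted p = 0.0276). It was also called without knockout replicate 1 (log2 fold change -0.72). That fit had 1 knockout library and called far more genes than the fit of all libraries. The sorting antigens' genes were detected in all libraries, Kit at 44.0 to 64.5 RPKM, Ly6a (Sca-1) at 83.2 to 164.9 RPKM and Slamf1 (CD150) at 3.85 to 10.3 RPKM, and so was Cd48, absent from the gated surface, at 20.7 to 32.4 RPKM. Their log2 fold changes were 0.38, 0.52, 0.82 and 0.14 in that order, none called, with Cd48 at -0.19 after rescaling. Kit and Slamf1 were called when knockout replicate 1 was left out (0.44 and 1.12), in the same fit with far more calls.

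The enzymes were expressed at very different levels, and the order hardly changed between libraries. Alas1 was the most abundant in all 4 libraries, followed by Urod and Alad. Fech and Ppox came next and exchanged places in knockout replicate 2, then Uros, Cpox and Alas2. Within the controls, Urod (57.7 ± 11.1 RPKM, SD, n = 2) and Alad (53.0 ± 10.3 RPKM) differed by less than either SD, but Urod lay above Alad in every library. Fech (13.3 ± 3.49 RPKM) and Ppox (10.1 ± 1.87 RPKM) differed by less than the SD of Fech but by more than that of Ppox. Levels per length rest on the longest annotated transcript, from 1489 bases for Urod to 6571 bases for Fech.

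**Figure D1:**
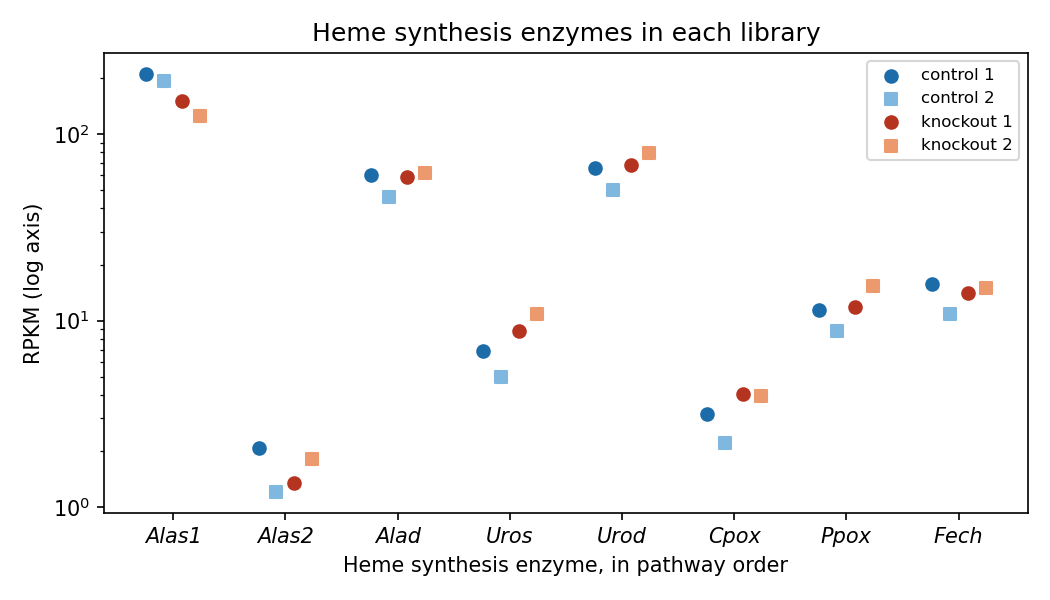
RPKM of the 8 enzymes (log axis) in each library; a point is 1 library. Alas1 lies between 125 and 210.1 RPKM and is the one enzyme lower in both knockout libraries than in both controls, and Alas2 lies between 1.21 and 2.08 RPKM.

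Of the 8 enzymes, 1 was called lower, Alas1, and 0 were called higher, beside 0.86% and 3.33% of all tested genes. Alas1 (ENSMUSG00000032786, chromosome 9, 106233455 to 106248654, minus strand, mm10) makes 5-aminolevulinate in most cells. It stood at 210.1 and 192 RPKM in control replicates 1 and 2 and at 151 and 125 RPKM in knockout replicates 1 and 2. Both knockout libraries lay below both controls, also after rescaling, with knockout replicate 2 the lowest. The mean fell from 201 ± 12.8 to 138 ± 18.4 RPKM (SD, n = 2). On the log2 scale this was -0.54 with an SE of 0.17, and it was called (adjusted p = 0.0351 by limma). Each value rested on 18567 to 41228 reads, so counting error was small beside the difference. The Alas1 locus overlaps the antisense gene 4930500F10Rik on the opposite strand, which has no values here. Whether counting used strand is not known, so Alas1 values may include its reads. Groups that do not overlap in the lower direction occurred in 7.38% of all genes in the fit, and in 25.2% once rescaled.

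The fall of Alas1 kept its sign under all 11 other settings, with log2 fold changes from -0.89 to -0.41, but the call did not. No filter, no trend and the replicate block cannot move its fold change. As the groups do not overlap, another pseudocount or leaving out a library cannot turn its sign. Only rescaling, quantile normalization and voom could have done so. Rescaling deepened the change to -0.89 (SE 0.27) while its adjusted p rose to 0.227, with an unadjusted p of 0.0169 in limma. The adjusted p was 0.231 with voom on recovered reads, 0.214 with quantile normalization, 0.276 without the mean-variance trend and 0.0884 with the replicate number as a block. The call was lost without control replicate 1, control replicate 2 or knockout replicate 2 (log2 fold changes -0.48, -0.61 and -0.41). It was kept without knockout replicate 1 (-0.68), where 1 knockout library was left and far more genes were called than from all libraries. In a combination added after the data were seen, rescaling and leaving out knockout replicate 1 gave a log2 fold change of -1.23 (adjusted p = 0.0385), and leaving out any of the other 3 libraries gave no call.

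Alas2 (ENSMUSG00000025270, chromosome X, 150547375 to 150570638, plus strand), the erythroid synthase, was barely expressed. It stood at 2.08 and 1.21 RPKM in the controls and at 1.35 and 1.81 RPKM in the knockouts, so the groups overlapped. The log2 fold change was -0.02 (SE 0.29, adjusted p = 0.965 by limma), on 120 to 237 reads per library. It turned positive, to 0.22 without control replicate 1 and 0.11 without knockout replicate 1. The Alas2 locus overlaps Apex2 on the opposite strand, which stood at 2.64 to 4.47 RPKM. The sources used here do not say whether counting used strand, so Alas2 values may include reads of Apex2. Alas1 RNA exceeded Alas2 RNA 101-fold and 158-fold in the control libraries and 112-fold and 69.1-fold in the knockouts. The log2 ratio of Alas2 to Alas1, which does not depend on the scale of a library, was 0.53 higher in the knockouts on average, with overlapping groups (exact permutation test, two-sided p = 0.667, where 2 against 2 libraries cannot go below 0.333).

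**Figure D2:**
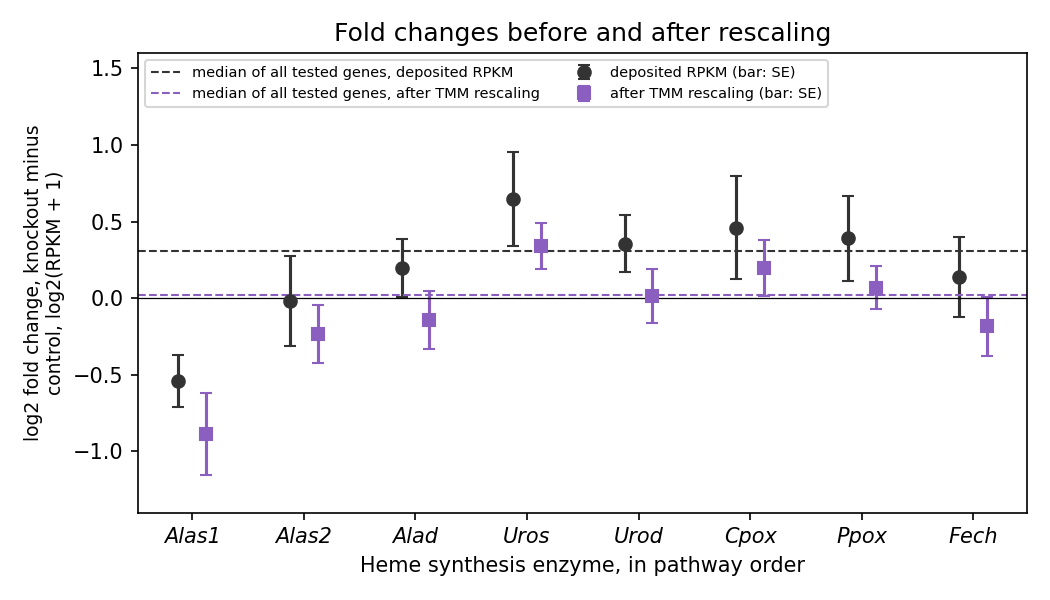
Log2 fold change of each enzyme (knockout minus control, log2(RPKM + 1), bars SE) from deposited and from rescaled values, with dashed lines at the medians of all tested genes, 0.31 and 0.02. Alas1 lies below both lines, at -0.54 and -0.89, and Uros lies highest, at 0.65 and 0.34.

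None of the cytosolic enzymes Alad, Uros and Urod was called. Alad (ENSMUSG00000028393, chromosome 4, 62509169 to 62519918, minus strand) joins a pair of 5-aminolevulinate molecules into porphobilinogen. It stood at 60.3 and 45.7 RPKM in the controls and at 58.7 and 62.0 RPKM in the knockouts. The groups overlapped, with control replicate 2 alone low, and the log2 fold change was 0.20 (SE 0.19, adjusted p = 0.519). It turned to -0.15 after rescaling.

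Uros (ENSMUSG00000030979, chromosome 7, 133686243 to 133710072, minus strand) closes the tetrapyrrole ring as uroporphyrinogen III. It stood at 6.87 and 5.02 RPKM in the controls and at 8.81 and 10.8 RPKM in the knockouts, with no overlap. Its log2 fold change of 0.65 (SE 0.31), the highest of the 8 enzymes, was not called (adjusted p = 0.275 by limma). After rescaling it was 0.34, again with no overlap. It was called when knockout replicate 1 was left out (log2 fold change 0.78). That fit had 1 knockout library and called far more genes than the fit of all libraries. Uros shares its locus with Bccip on the opposite strand, which stood at 29.8 to 47.1 RPKM. The sources used here do not say whether counting used strand, so Uros values may include reads of Bccip.

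Urod (ENSMUSG00000028684, chromosome 4, 116989965 to 116994413, minus strand), whose GC box is shown above, removes carboxyl groups from uroporphyrinogen. It stood at 65.6 and 49.9 RPKM in the controls and at 68.3 and 79.1 RPKM in the knockouts, the latter above both controls. The log2 fold change was 0.36 (SE 0.19, adjusted p = 0.318), close to the median of all genes, and 0.01 after rescaling.

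None of the enzymes at the mitochondrial end of the pathway was called. Cpox (ENSMUSG00000022742, chromosome 16, 58670292 to 58717636, plus strand), which makes protoporphyrinogen and has the overlapping GATA words shown above, stood at 3.15 and 2.21 RPKM in the controls and at 4.06 and 3.97 RPKM in the knockouts. The knockout libraries were close to each other and above both controls. The log2 fold change was 0.46 (SE 0.34, adjusted p = 0.428), and 0.20 after rescaling, where the groups overlapped. The Cpox locus overlaps Gpr15 on the opposite strand, which has no values here. Ppox (ENSMUSG00000062729, chromosome 1, 171275990 to 171281186, minus strand), which oxidizes protoporphyrinogen to protoporphyrin, stood at 11.4 and 8.78 RPKM in the controls and at 11.8 and 15.3 RPKM in the knockouts. Knockout replicate 1 lay just above control replicate 1, and the log2 fold change was 0.39 (SE 0.27, adjusted p = 0.419), and 0.07 after rescaling. Ppox was called when knockout replicate 1 was left out (log2 fold change 0.56), in the same fit with 1 knockout library and far more calls. The Ppox locus overlaps B4galt3 on the opposite strand, which stood at 5.35 to 8.03 RPKM.

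Fech (ENSMUSG00000024588, chromosome 18, 64452914 to 64490251, minus strand) inserts iron into protoporphyrin and so completes heme. It stood at 15.8 and 10.9 RPKM in the controls and at 14.2 and 14.9 RPKM in the knockouts, which lay between the controls. The log2 fold change was 0.14 (SE 0.26, adjusted p = 0.716), and -0.18 after rescaling.

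Over the set, 4 enzymes (Uros, Urod, Cpox and Ppox) were higher in both knockout libraries than in both controls, which was so for 55.5% of the genes in the fit. After rescaling this held for 1 enzyme, Uros, against 29.2% of all genes. Alas1 and, by 1.39 against 1.40 RPKM, Alas2 were then lower without overlap, which was so for 25.2% of all genes. The median log2 fold change over the 8 enzymes was 0.28, beside 0.31 for all genes, and -0.07 after rescaling. It was 0.47 without control replicate 1 and 0.08 without control replicate 2. With all 4 libraries and values as deposited, the count of higher enzymes and the median lay near those of all genes.

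The make-up of the enzymes' RNA, which does not depend on library scale, was computed after the levels had been seen. Alas1 made up 56.0% and 60.8% of the summed RPKM of the 8 enzymes in the controls and 47.5% and 40.0% in the knockouts. The mean share was 58.4% ± 3.43 in control and 43.7% ± 5.31 in knockout (SD, n = 2), with no overlap. For Urod it was 16.6% ± 1.19 and 23.4% ± 2.69, and for Alad 15.3% ± 1.12 and 19.1% ± 0.972. Since shares add up to 100%, a lower Alas1 share raises the others. The exact permutation p was 0.333 for each of these 3 shares, two-sided, the smallest that 2 against 2 libraries allow, so a threshold of 0.05 cannot be passed. The sum of the 7 enzymes other than Alas1 was 165 and 124 RPKM in the controls and 167 and 188 RPKM in the knockouts.

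**Figure D3:**
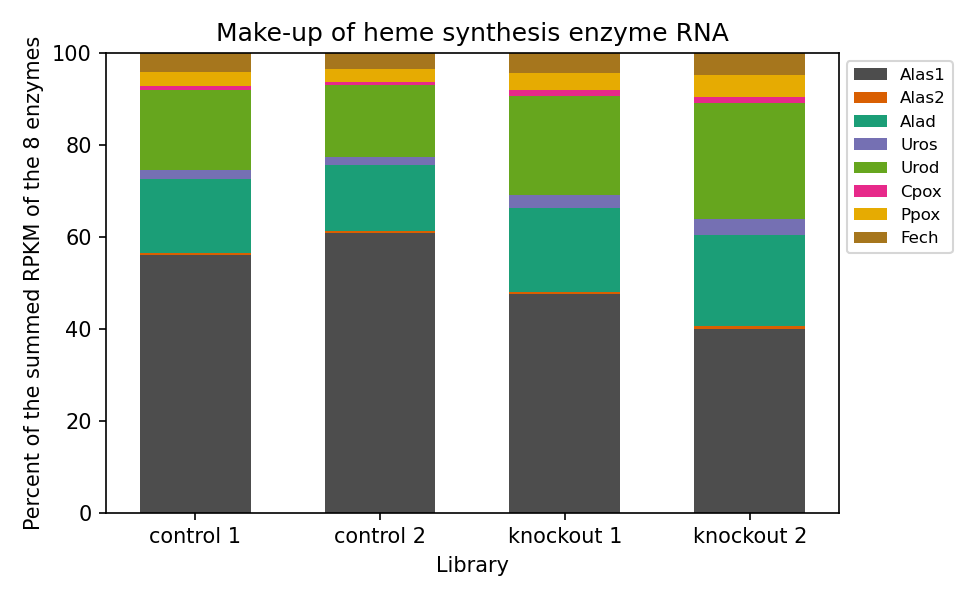
Percent of the summed RPKM of the 8 enzymes taken by each, in each library (bars start at 0). The Alas1 share is 56.0% and 60.8% in the controls and 47.5% and 40.0% in the knockouts.

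Other genes of the pathway were described by lists of known function. In the list of mitochondrial supply and transport, 16 genes were tested and 0 called, with a median log2 fold change of 0.13 (-0.16 after rescaling) and 11 of 16 below the median of all genes. The smallest p-values there belonged to Tspo, a porphyrin-binding protein of the outer mitochondrial membrane, with 529 ± 15.5 RPKM (SD, n = 2) in control against 411 ± 20.4 RPKM in knockout (log2 fold change -0.36, adjusted p = 0.236 by limma), to the iron importer Slc25a28 (0.57, adjusted p = 0.266) and to the transporter Abcb8 (0.48, adjusted p = 0.299). At an unadjusted p under 0.05, 2 of the 16 were higher and 1 lower, beside 13.8% of all genes higher and 2.45% lower. Slc25a38, the glycine carrier, stood at 12.4 and 8.69 RPKM in the controls and at 14.1 and 15.1 RPKM in the knockouts, and was named after its values were seen.

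Of 14 genes of iron uptake, storage and sensing 0 were called, and 1 was higher at an unadjusted p under 0.05, beside the 13.8% of all genes. The transferrin receptor gene Tfr2 stood at 26.2 and 25.4 RPKM in the controls and at 31.8 and 46.5 RPKM in the knockouts (log2 fold change 0.56, SE 0.21, adjusted p = 0.136 by limma). The ferritin light chain gene Ftl1 gave -0.31 (adjusted p = 0.312) and the metal importer Slc39a8 0.58 (adjusted p = 0.341). The list median was 0.24.

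Of 19 iron-sulfur cluster genes, 1 was called higher, beside 3.33% of all tested genes. It was the co-chaperone Hscb, which hands the new cluster to its recipients. Hscb stood at 19.6 and 14.3 RPKM in the controls and at 23.2 and 34.7 RPKM in the knockouts, with no overlap (log2 fold change 0.73, SE 0.23, adjusted p = 0.0426). The call was lost after rescaling (0.39, adjusted p = 0.314). It was also lost when control replicate 1, control replicate 2 or knockout replicate 2 was left out, with adjusted p = 0.932, 0.957 and 0.417. The list median was 0.30, next to that of all genes. Leaving out knockout replicate 1 gave 10 members called higher, in a fit that called 6381 of all genes higher.

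Of 13 genes of heme breakdown, export and sensing 0 were called and 4 were higher at an unadjusted p under 0.05, again beside 13.8% of all genes, and the list median was 0.37. The smallest p-values belonged to Nr1d1, a nuclear receptor that binds heme (0.69, adjusted p = 0.150), to Pgrmc1, a heme-binding membrane protein (0.49, adjusted p = 0.161), and to the quinone reductase gene Nqo1 (0.78, adjusted p = 0.206). Hmox1, the inducible heme oxygenase, was named after its values were seen. It stood at 12.2 and 4.96 RPKM in the controls and at 11.2 and 14.6 RPKM in the knockouts, with overlapping groups. Of 7 genes of heme a and heme c insertion and their cytochromes 0 were called, at any p under 0.05 either, with Cox17 at 0.56, Cycs, which encodes cytochrome c, at -0.34 and Cox11 at 0.51 (adjusted p = 0.312, 0.326 and 0.405). All genes named above by their p that were not called, from Tspo to Cox11, were called when knockout replicate 1 was left out. Tspo, Ftl1 and Cycs were lower there (log2 fold changes -0.41, -0.55 and -0.50) and the rest higher. That fit had 1 knockout library and called far more genes, in both directions, than the fit of all libraries.

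**Figure D4:**
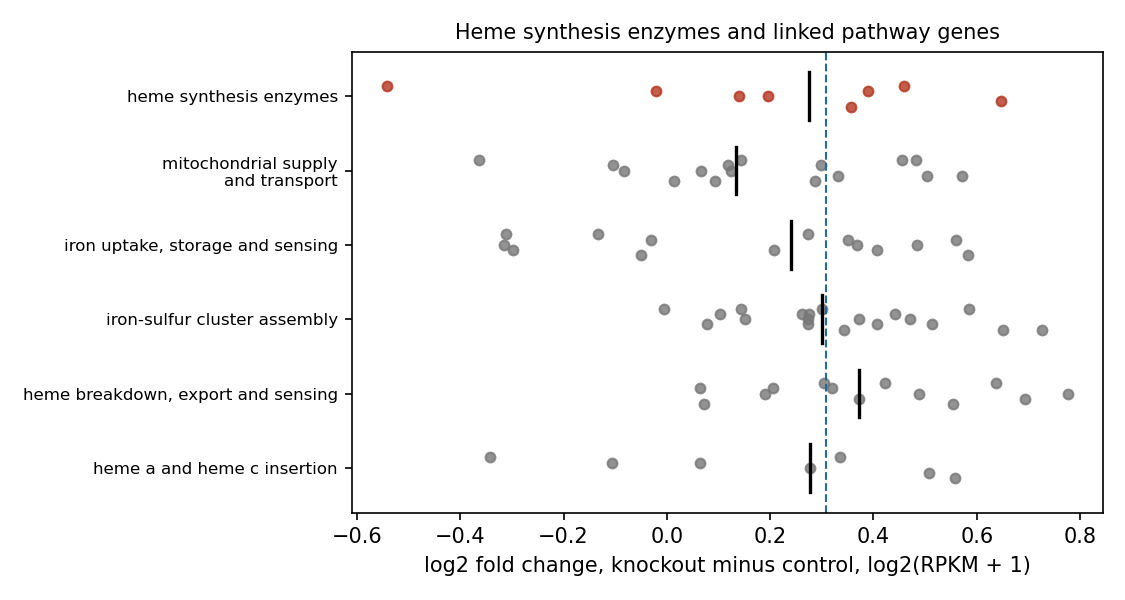
Log2 fold change (knockout minus control, log2(RPKM + 1)) of each tested gene in 6 pathway lists; a point is 1 gene, black bars are list medians and the dashed line is the median of all tested genes, 0.31. Alas1 at -0.54 is the lowest of all points shown.

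Alas1 and Alas2 were also set beside 95 genes of these lists and the erythroid lists by the Euclidean distance between their log2(RPKM + 1) deviations over the 4 libraries. Nearest to Alas1 were Tspo (distance 0.22), Ftl1 (0.27) and Cycs (0.27), which stood at 60.2 to 89.6 RPKM. Nearest to Alas2 were the heme exporter Flvcr1 (0.21), Ciapin1 (0.25) and Abcb10 (0.25). With 4 libraries these distances are a description of the values only.

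Markers of cells that make much heme were read beside the enzymes. Of 24 erythroid markers 17 were tested, of which 2 were called higher, 1 lower and 14 not called. Over all tested genes 3.33% were called higher and 0.86% lower. Gata1, a transcription factor of red cell and megakaryocyte development, stood at 30.5 and 19.8 RPKM in the controls and at 37.0 and 50.5 RPKM in the knockouts (log2 fold change 0.79, SE 0.21, adjusted p = 0.00851 by limma). The ammonium transporter gene Rhag, outside the naming rule, was called at 0.79 (adjusted p = 0.0370) although its groups overlapped. The beta-globin gene Hbb-bs was called lower. It stood at 107 and 111 RPKM in the controls and at 91.4 and 43.7 RPKM in the knockouts, a wide gap between the latter (log2 fold change -0.78, SE 0.18, adjusted p = 0.00115). After rescaling none of these 3 was called (adjusted p = 0.333, 0.607 and 0.308).

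The 3 calls depended on single libraries. Gata1 stayed called with knockout replicate 1 left out (1.01, adjusted p = 0.0217). It was not called with any of the other libraries left out, where its log2 fold change ran from 0.49 to 1.09. For Rhag the call was lost whichever library was left out, and the log2 fold change was 0.13 without control replicate 2 and 1.45 without control replicate 1. For Hbb-bs it was -1.30 without knockout replicate 1 (adjusted p = 0.00706) and -0.26 without knockout replicate 2 (adjusted p = 0.414), and the call was also lost without either control.

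The other globin genes were not called. Hba-a1 gave a log2 fold change of -0.48 (adjusted p = 0.135), Hba-a2 -0.67 (adjusted p = 0.124) and Hbb-bt 0.12 (adjusted p = 0.670), the last -0.22 after rescaling. Hbb-bt was called lower at -0.61 without knockout replicate 1 (adjusted p = 0.0166) and higher at 0.86 without knockout replicate 2 (adjusted p = 0.0380). Leaving out knockout replicate 1 also gave lower calls of Hba-a1 and Hba-a2 (adjusted p = 0.0340 and 0.0256). These near-identical copies share reads, so their separate values are uncertain. Klf1 (0.70, adjusted p = 0.0609), Epor (0.76, adjusted p = 0.0865) and Slc4a1 (0.19, adjusted p = 0.650, -0.01 after rescaling) were not called either, while Epor was without knockout replicate 1 (adjusted p = 0.0196). In bulk RNA, fewer cells of a type and less RNA per cell cannot be told apart.

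The 2 control libraries differed in both the enzymes and the erythroid markers, a comparison made after the values were seen and not tested. All enzymes but Alas1 were lowest in control replicate 2, 7 of 8, as were 13 of 17 erythroid markers, against 49.9% of the genes in the fit. After rescaling this was so for 4 of 8 enzymes and 12 of 17 markers, against 30.4%. The enzymes were 1.09-fold (Alas1) to 1.71-fold (Alas2) higher in control replicate 1 than in control replicate 2, with a median of 1.34. The median was 1.65 for the erythroid markers and 1.05 for all genes in the fit. Car1, an erythroid carbonic anhydrase named after its values were seen, stood at 634 and 196 RPKM in the controls and at 513 and 279.7 RPKM in the knockouts. The summed erythroid markers were at 1159.6 and 564 RPKM in the controls and at 1038 and 661 RPKM in the knockouts, and their part in the enzymes' values was not tested.

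**Figure D5:**
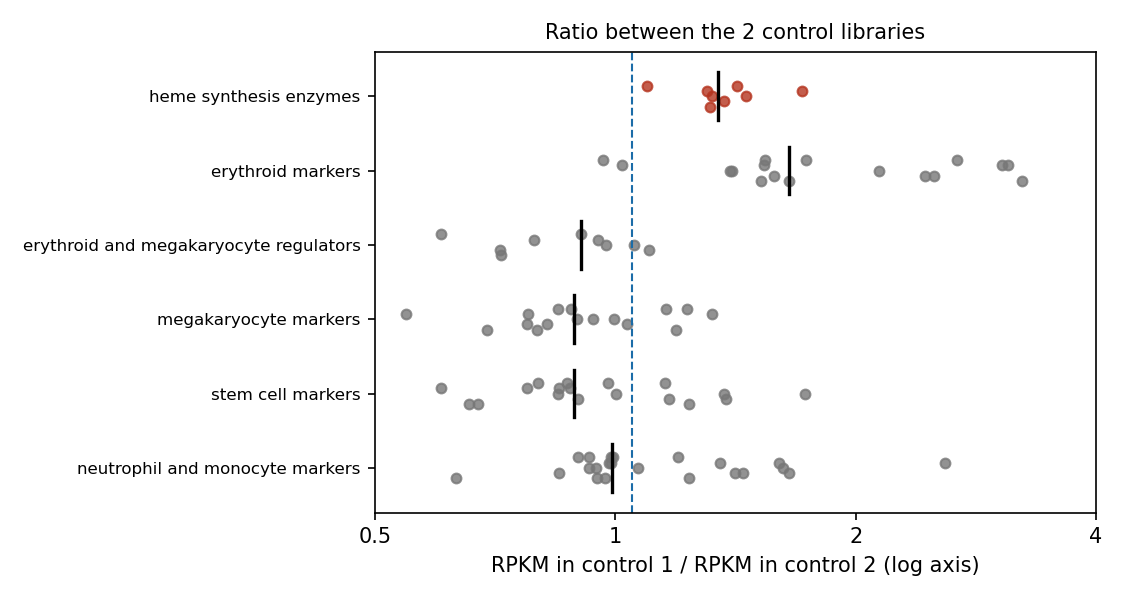
RPKM in control replicate 1 divided by RPKM in control replicate 2 (log axis) for each tested gene of 6 lists; a point is 1 gene, black bars are list medians and the dashed line is the median of all tested genes, 1.05. The 8 enzymes lie between 1.09 and 1.71.

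Markers of neutrophils and monocytes moved in the direction of Alas1. Of 22 neutrophil and monocyte markers 15 were called lower and 0 higher, beside 0.86% and 3.33% of all tested genes. The median log2 fold change of these markers was -0.74. Their summed level was 72493 and 74584 RPKM in the controls and 51035 and 33234 RPKM in the knockouts, and no marker of the list was at 0. Their part in the fall of Alas1 was not tested. Of 16 megakaryocyte markers 8 were called higher, of 18 stem cell markers 8, of 9 erythroid and megakaryocyte regulators 1 and of 11 stroma and endothelium markers 8, all without a lower call. Over all tested genes 3.33% were called higher. After rescaling 0 members of any list were called, and 1 of all genes. The summed stroma and endothelium markers were at 512 and 310 RPKM in the controls and at 6382 and 1640 RPKM in the knockouts, highest in knockout replicate 1, and their part in the enzymes' values was not tested. Of 6 mast cell and basophil markers and 4 B cell markers 0 were called, and of the T and NK cell list 1 gene was tested, Nkg7, which was called lower.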

How the data were processed

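The authors deposited 1 table of RPKM values, 1 column per library; this unit was identified from the values, since 99.4% of them, multiplied by the gene's longest GENCODE M21 transcript, came out as whole reads within 0.1 of a read. A symbol and a length were found for 12384 of 12390 gene IDs. Per the submitters' processing notes the build was mm10, and libraries were made with a Smart-Seq V4 kit, per the labels' protocols. Aligner and counting: not given in the sources used here. Genes without reads stand at 0.001 RPKM, and every listed gene reaches 1.0063 RPKM or more in some library, so genes that are low throughout are not analysed here.

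The test was limma (version 3.58.1, R 4.3.3), with its trend of variance on mean, on log2(RPKM + 1) of the 11742 genes averaging 1 RPKM or more, with genotype as the sole term (2 residual degrees of freedom) and Benjamini-Hochberg adjustment. The prior degrees of freedom were infinite, so the trend stood in for the spread of every single gene, and p-values are too small where replicates lie far apart. Tested on simulated counts for this comparison (11737 genes, dispersion 0.01), the fit called 48 of 50 genes raised by 1 on the log2 scale, all 50 in each of the sets lowered by 1, raised by 2 and lowered by 2, and 21 of 11537 unchanged genes. The simulated libraries had the same dispersion for every gene and no difference in scale or composition. They therefore do not show how the fit behaves in these data. Deposited libraries of a group differed beyond sampling noise (chi-square per degree of freedom 50.6 for control, 157 for knockout) and were each counted once. Alternatives were another pseudocount (0.1), no filter, other scalings, no trend, voom, a replicate block and leaving out each library. Rescaling combined with leaving out a library was added after the data were seen. TMM-type factors were computed from the recovered reads. Members, lists and named genes (all enzymes, called list members or else the 3 with the smallest p, set erythroid and sort genes) were chosen with earlier results of these data known. Some genes are not reported here.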

Additional observations from a re-analysis of the deposited data

How the results depend on the processing

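Alas1 stayed below 0 under all 11 other settings, of which only TMM rescaling, quantile normalization and voom could have turned its sign. It was called in 3 of the 11 (pseudocount 0.1, no filter and without knockout replicate 1). Genes called higher and lower numbered 391 and 101 in all, 1 and 0 after TMM rescaling, 0 and 0 with quantile normalization, 52 and 22 with voom, 175 and 64 with the replicate block, and 373 and 52 without the trend; leaving out 1 library gave 27 higher without control replicate 2 to 6381 without knockout replicate 1, and 5 lower without control replicate 1 to 526 without knockout replicate 1. At an unadjusted p under 0.05 limma gave 1019 higher and 859 lower after TMM rescaling, and 869 and 879 with quantile normalization. With TMM rescaling and 1 library left out, an alternative added after seeing the data, 0 to 156 were called higher and 0 to 792 lower, and 0 to 1 enzymes lower, Alas1 without knockout replicate 1. The enzymes called lower numbered 0 with TMM rescaling, quantile normalization, no trend, voom and the replicate block, and 0 to 1 on leaving out a library. The enzymes called higher numbered 0 to 2 on leaving out a library, Uros (adjusted p = 0.0246) and Ppox (0.0435) without knockout replicate 1. The control and knockout libraries of 1 number share only that number (correlation of deviations 0.07), and the block, which cannot move a fold change in this balanced design, ended the call of Alas1 (adjusted p = 0.0884). The median over the 8 enzymes, 0.28, was -0.07 with TMM rescaling, 0.06 with quantile normalization, -0.05 with voom, and 0.08 (without control replicate 2) to 0.47 (without control replicate 1) on leaving out a library. The log2 ratio of Alas2 to Alas1 was 0.53 higher in the knockouts, 0.0004 with quantile normalization and 0.18 to 0.87 on leaving out a library.

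Signs that turned, in genes not called from the values as deposited, were those of Alas2 (0.22 without control replicate 1, 0.11 without knockout replicate 1), Alad (-0.15 with TMM rescaling, -0.13 with voom, -0.0003 without control replicate 2) and Fech (-0.18 with TMM rescaling, -0.17 with quantile normalization, -0.18 with voom, -0.11 without control replicate 2). Outside the enzymes they were those of Slc4a1 (-0.0052 with TMM rescaling, -0.10 with quantile normalization), Hbb-bt (-0.22 with TMM rescaling, -0.067 with quantile normalization, -0.27 with voom, -0.61 without knockout replicate 1) and Cd48 (-0.19 with TMM rescaling, -0.11 with quantile normalization, -0.19 with voom, -0.12 without control replicate 2, -0.07 without knockout replicate 2). Hbb-bt was called lower without knockout replicate 1 (adjusted p = 0.0166 by limma) and higher, at 0.86, without knockout replicate 2 (adjusted p = 0.0380). Over the 4 fits with 1 library left out, log2 fold changes ran from -0.26 to 0.22 for Alas2, -0.0003 to 0.39 for Alad, -0.11 to 0.39 for Fech, -0.61 to 0.86 for Hbb-bt and -0.12 to 0.41 for Cd48. The causes were not tested. Where 1 library was left out, the lone sample of its group was assumed to vary like the other group. The planned edgeR and DESeq2 fits were not run; voom was the test made on the recovered reads. With 2 libraries per group, small differences in low genes such as Alas2 and Cpox could not be resolved.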

Other observations

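The 2 control libraries differed in their cell type markers beyond the erythroid list. The median of RPKM in control replicate 1 divided by RPKM in control replicate 2 was 2.52 over 6 mast cell and basophil markers and 1.41 over 4 B cell markers. It was 0.888 over 18 stem cell markers, 0.887 over 16 megakaryocyte markers and 0.991 over 22 neutrophil and monocyte markers, beside 1.05 over all tested genes. The shared erythroid and megakaryocyte regulators, such as Gata2 at 18.1 and 29.9 RPKM in the controls, had a median of 0.907. Each control group value rests on these 2 libraries, and no test was run on their difference.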
